A study of Mus musculus with 3 samples.

Results

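Mitosis is the phase in which a cell sorts its copied chromosomes to 2 daughter cells, and 46 mouse genes that act in it were followed here through 3 RNA-seq libraries of MC3T3-E1 cells. The genes were picked by name and role, and all 46 were listed in the deposited FPKM table of 15287 genes. Earlier results of these data were known at the choice, so counts of the 46 beside all genes are a description. MC3T3-E1 is a preosteoblast line from mouse calvaria, labelled wild type. The CTL library came from cells with no added agent, the Ti library from cells exposed to titanium particles (10 μg/cm2, 24 h). The third, Ti+Se-Met, had the particles together with 5 μM selenomethionine for the same time. Each condition was 1 culture and 1 library. A difference between conditions therefore cannot be told apart from a difference between 3 cultures, and no test across replicates was possible.

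A dividing cell makes most mitotic proteins anew in each cycle. The cyclins and Cdk1 start mitosis, the Aurora and Polo kinases build the spindle, kinetochores tie chromosomes to its fibres, and the spindle checkpoint holds the cell until all chromosomes are attached. The anaphase-promoting complex then marks securin and cyclin B for destruction, and the cytokinesis proteins part the daughter cells. Transcripts of most of these genes are low in resting cells and in early G1 and rise together towards mitosis. In a culture, a larger share of cycling cells, more cells in or near mitosis and more of these RNAs per cell cannot be told apart.

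FPKM values are fragments per kilobase of transcript, scaled to a fixed number of mapped fragments, so levels of different genes can be set side by side within a library. The ratio of a library over another is the difference in log2(FPKM + 1), which is smaller than the log2 of the plain fold for low genes. Thresholds such as 2-fold and 1.5-fold were set on this ratio, while a fold printed with an interval is the plain fold of FPKM. No test was run, and genes called tested are those that reached 1 FPKM in at least 1 library, which held for 11137 genes and for all 46 mitosis genes. The estimated depths were 14350000 fragments (CTL), 14800000 (Ti) and 10050000 (Ti+Se-Met). Each interval given with a fold is a 95% exact conditional binomial one, on fragments estimated from these depths. It holds counting error alone and sets library against library. Of 10 osteoblast markers, all were listed and 7 passed the filter, while Sp7, Bglap and Ibsp stayed below 1 FPKM in each library. Runx2, the master regulator of the lineage, was at 26.77, 17.14 and 22.97 FPKM and Col1a1, a collagen of bone, at 1333.19, 354.20 and 481.63 FPKM (in the order CTL, Ti, Ti+Se-Met, which all later triplets follow). Spp1, which encodes osteopontin, went the other way, at 1261.19, 3705.78 and 4659.49 FPKM. Ti lay below CTL for the other 6 of the 7, and Ti+Se-Met above Ti for 6 of the 7, Alpl being level at 0.20 FPKM. The summed level of all 10 was 5965, 5541 and 6933 FPKM, a sum in which Spp1 and the collagens move in opposite directions. Of 7 macrophage markers, 4 were listed and only Lyz2 passed the filter, at 26.72, 14.76 and 12.42 FPKM, and the sums of the listed endothelial and adipocyte markers were at most 0.88 FPKM. The part of these differences in the values of the mitosis genes was not tested.

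The mitosis genes were expressed at moderate levels in all libraries. In CTL they lay between 2.22 FPKM for Ttk and 40.39 FPKM for Bub3, with a median of 11.19 FPKM. In the Ti-treated libraries the medians were 16.3 and 23.53 FPKM. Their summed level was 615.39 (CTL), 904.24 (Ti) and 1199.14 FPKM (Ti+Se-Met), which is 0.137%, 0.172% and 0.233% of all FPKM in the library. The sum was lowest in CTL and highest in Ti+Se-Met, and it is weighted towards the most abundant members.

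**Figure D1:**
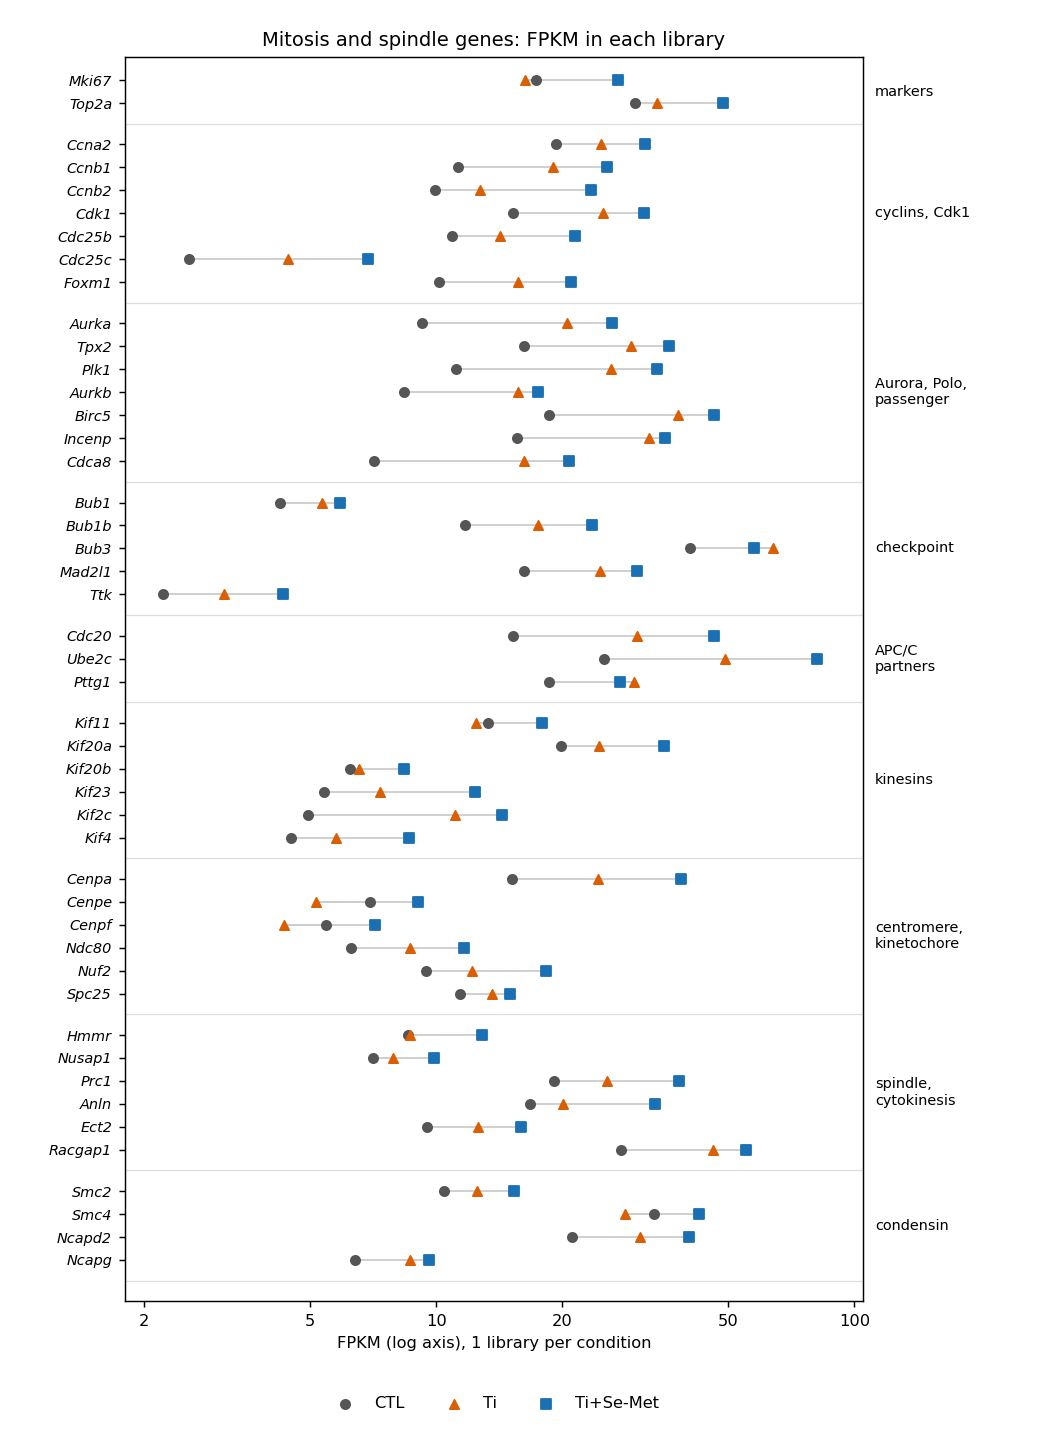
FPKM (log axis) of the 46 mitosis and spindle genes, ordered by role, in CTL (circles), Ti (triangles) and Ti+Se-Met (squares), with 1 library per condition and no error bars. The square lies farthest right for 44 genes, the exceptions being Bub3 and Pttg1, and the triangle lies left of the circle for Mki67, Kif11, Cenpe, Cenpf and Smc4.

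Titanium particles were compared with no treatment first. Of the 46 mitosis genes, 41 were higher in Ti than in CTL, where 55.3% of all genes tested were higher. Of the 41, Top2a, Kif20b, Hmmr and Nusap1 were lower in Ti as TPM, Kif20b and Hmmr also with upper-quartile scaling and Hmmr also with median-of-ratios scaling. Of them 5 (10.9%) were higher by 2-fold or more, against 3.63% of all genes, and 0 were lower by 2-fold or more, against 3.64% of all genes. The 5 were Plk1, Cdca8, Aurka, Kif2c and Incenp. Birc5 reached a plain fold of 2.04 but not 2-fold on log2(FPKM + 1). The median log2 ratio of the mitosis genes was 0.39, beside 0.08 over all genes tested, and their ratios spread from -0.36 to 1.17. Most of the differences were thus well below 2-fold, and the number past 2-fold depended on the scaling: as TPM, which sets the sum of each library equal, 0 passed and the median was 0.21, beside -0.14 for all genes. Over all genes, 404 were 2-fold higher and 405 lower, against 233 and 864 as TPM, 242 and 535 with upper-quartile scaling, and 249 and 460 with the length class subtracted.

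For Ti+Se-Met over CTL, all 46 genes were higher, against 51.0% of all genes tested. Here 14 of the 46 (30.4%) were higher by 2-fold or more, against 2.64% of all genes, and 0 were lower by as much, against 3.32% of all genes. The 14 made up 4.76% of the 294 genes that were 2-fold higher. The median log2 ratio was 0.89, beside 0.01 for all genes, and the smallest ratio, that of Cenpf, was 0.34. As TPM, all 46 were still higher than in CTL, and 10 were past 2-fold, while over all genes the 294 higher and 370 lower became 224 and 819. The comparison shares its control library with that of Ti over CTL, so the pair are not independent.

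Selenomethionine was then compared directly, as Ti+Se-Met over Ti. Of the 46 genes, 44 were higher in Ti+Se-Met, whereas only 38.5% of all genes tested were. No member reached 2-fold, which 0.162% of all genes did. At 1.5-fold, 9 of the 46 (19.6%) were higher, against 0.844% of all genes, and these 9 were 9.57% of the 94 genes that were 1.5-fold higher in the table. They were Ccnb2, Ube2c, Mki67, Anln, Cenpe, Kif23, Cenpa, Cenpf and Cdc20. The median log2 ratio of the mitosis genes was 0.38, beside -0.06 over all genes tested. The interval of the fold lay above 1 for 40 of the 46 genes, against 15.6% of the 10919 tested genes with a transcript length. It lay below 1 for Bub3 alone, and held 1 for Aurkb, Bub1, Pttg1, Spc25 and Ncapg. The Ti library enters this comparison and that of Ti over CTL with opposite signs, so they are not independent.

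Mki67, the gene of the antigen used to count cycling cells, was at 17.33 (CTL), 16.29 (Ti) and 27.18 FPKM (Ti+Se-Met). CTL and Ti were close, and Ti+Se-Met stood above them. The fold of Mki67 for Ti+Se-Met over Ti was 1.67 (interval 1.58 to 1.76), on an estimated 2389 and 2707 fragments. Top2a, the topoisomerase that untangles sister chromatids, was at 29.95, 33.66 and 48.65 FPKM, again with the largest step between the Ti-treated libraries.

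The cyclins, Cdk1 and the factors that switch Cdk1 on were all higher in Ti than in CTL and higher again in Ti+Se-Met, 7 of 7 in each comparison. Ccnb1, a cyclin B that binds Cdk1 to start mitosis, was at 11.25 (CTL), 19.01 (Ti) and 25.68 FPKM (Ti+Se-Met). Ccnb2, the second cyclin B, was at 9.94, 12.74 and 23.43 FPKM. These steps differ in size, since most of the difference of Ccnb1 lay between CTL and Ti and most of that of Ccnb2 between the Ti-treated libraries. Ccnb2 had the largest log2 ratio of all members for Ti+Se-Met over Ti, 0.83, with a fold of 1.84 (interval 1.56 to 2.18), and was 28th of the 11137 genes tested. Cdk1, the kinase itself, was at 15.26, 25.06 and 31.45 FPKM. Ccna2, the cyclin of S phase and early mitosis, was at 19.32, 24.77 and 31.51 FPKM. The order of the libraries was the same in both genes.

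Cdc25b and Cdc25c are phosphatases that remove the inhibitory phosphates from Cdk1. Cdc25b was at 10.91 (CTL), 14.19 (Ti) and 21.46 FPKM (Ti+Se-Met). Cdc25c was scarce, at 2.56, 4.43 and 6.88 FPKM, on an estimated 66, 118 and 124 fragments, and its fold of 1.55 for Ti+Se-Met over Ti has a wide interval of 1.19 to 2.01. Foxm1, the transcription factor that drives many G2 and M phase genes, was at 10.18, 15.65 and 20.99 FPKM, and followed the same order. The median log2 ratio of these 7 genes was 0.57 for Ti over CTL and 0.42 for Ti+Se-Met over Ti.

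The Aurora and Polo kinases and the chromosomal passenger complex had the highest ratios for Ti over CTL of the 9 role groups. Their median was 1.01, and 4 of the 7 genes passed 2-fold, against 3.63% of all genes. As TPM 0 of these passed, and with the length class subtracted only Plk1 did. Plk1, the Polo kinase of spindle assembly, was at 11.13 (CTL), 26.21 (Ti) and 33.67 FPKM (Ti+Se-Met), and its log2 ratio of 1.17 for Ti over CTL was the largest of the 46. Its fold there was 2.35 (interval 2.07 to 2.69). Aurka, the kinase of the spindle poles, was at 9.25, 20.50 and 26.38 FPKM. Tpx2, which activates Aurka on the spindle, was at 16.21, 29.25 and 35.95 FPKM. In these genes the larger step lay between CTL and Ti.

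The passenger complex corrects faulty attachments and later acts in cytokinesis. Its kinase Aurkb was at 8.36 (CTL), 15.65 (Ti) and 17.53 FPKM (Ti+Se-Met). Its scaffold Incenp was at 15.59, 32.33 and 35.21 FPKM, with a fold of 1.09 (interval 1.01 to 1.18) between the Ti-treated libraries. Birc5, which encodes survivin, was at 18.60, 37.86 and 46.25 FPKM. Cdca8, which encodes borealin, was at 7.09, 16.22 and 20.73 FPKM. The CTL level was the lowest in all 4 genes, and Ti and Ti+Se-Met were close in Aurkb and Incenp. For this role group the median log2 ratio for Ti+Se-Met over Ti was 0.29, with 0 of 7 genes past 1.5-fold, against 0.844% of all genes.

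The 5 genes of the spindle checkpoint were all higher in Ti than in CTL, with a median log2 ratio of 0.54. Bub3, which anchors Bub1 and BubR1 at kinetochores, was the most abundant of the 46 in CTL, at 40.39 FPKM, and was at 63.80 and 57.49 FPKM in the Ti-treated libraries. Its level was lower in Ti+Se-Met than in Ti, with a fold of 0.901 (interval 0.838 to 0.969). Bub1b, which encodes BubR1, was at 11.75, 17.48 and 23.63 FPKM. Mad2l1, whose product holds Cdc20 inactive, was at 16.21, 24.63 and 30.17 FPKM. Both were lowest in CTL and highest in Ti+Se-Met. The kinases Bub1 and Ttk were low, with Bub1 at 4.22, 5.32 and 5.88 FPKM and Ttk at 2.22, 3.11 and 4.31 FPKM. For Bub1 the fold for Ti+Se-Met over Ti, 1.11 (interval 0.909 to 1.33), was not distinguishable from equal levels at this depth.

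Among the partners of the anaphase-promoting complex, Cdc20 and Ube2c had the largest differences between Ti+Se-Met and CTL of all members. Ube2c, the ubiquitin-conjugating enzyme that works with the complex, was at 25.17 (CTL), 49.17 (Ti) and 81.63 FPKM (Ti+Se-Met). Its log2 ratio was 0.94 for Ti over CTL, 1.66 for Ti+Se-Met over CTL and 0.72 for Ti+Se-Met over Ti, and it moved from the 5th most abundant member in CTL to the 1st in Ti+Se-Met. Cdc20, the activator of the complex in mitosis, was at 15.24, 30.14 and 46.20 FPKM, with a fold of 3.03 (interval 2.67 to 3.45) for Ti+Se-Met over CTL. In both genes the libraries were well apart, with the larger log2 step between CTL and Ti. Pttg1 encodes securin, which the complex destroys to release the chromatids, and it was at 18.59, 29.75 and 27.49 FPKM. Pttg1 was thus above CTL in both Ti-treated libraries, and its fold for Ti+Se-Met over Ti, 0.924 (interval 0.783 to 1.09), did not exclude equal levels.

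Kinesins are the motors that push, pull and shorten spindle fibres. Kif2c, which shortens fibres at the centromere, was at 4.93 (CTL), 11.12 (Ti) and 14.36 FPKM (Ti+Se-Met). It was the only one of the 6 kinesins past 2-fold for Ti over CTL, where 3.63% of all genes were higher by that much. Kif11, the motor that parts the spindle poles, was at 13.32, 12.42 and 17.90 FPKM. The interval of its fold for Ti over CTL, 0.848 to 1.03, did not exclude equal levels, whereas Ti+Se-Met lay above both. Kif20a and Kif23 are motors of the central spindle. Kif20a was at 19.90, 24.47 and 35.09 FPKM, and Kif23 at 5.38, 7.33 and 12.41 FPKM. Kif20b, another motor of cytokinesis, was at 6.22, 6.55 and 8.36 FPKM. Kif4, a motor on chromosome arms, was at 4.49, 5.76 and 8.61 FPKM. Over the 6 kinesins the median log2 ratio was 0.29 for Ti over CTL and 0.50 for Ti+Se-Met over Ti, with all 6 intervals above 1 in the latter.

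The 6 genes of the centromere and kinetochore included the lowest ratios of all members for Ti over CTL, and 6 of 6 were higher in Ti+Se-Met than in Ti. Cenpe, a giant kinesin that carries chromosomes to the spindle equator, was at 6.93 (CTL), 5.17 (Ti) and 9.03 FPKM (Ti+Se-Met). Cenpf, a large protein of the outer kinetochore, was at 5.45, 4.32 and 7.14 FPKM. Ti was the lowest library for both, and Ti+Se-Met the highest. The fold of Cenpe was 0.746 (interval 0.669 to 0.831) for Ti over CTL and 1.75 (interval 1.56 to 1.95) for Ti+Se-Met over Ti. Cenpa, the histone that marks the centromere, was at 15.19, 24.38 and 38.57 FPKM, with a log2 ratio of 0.64 for Ti+Se-Met over Ti. The Ndc80 complex grips the fibre ends, and its 3 members on the list kept the order CTL, Ti, Ti+Se-Met. Ndc80 was at 6.24, 8.65 and 11.68 FPKM, Nuf2 at 9.43, 12.18 and 18.33 FPKM, and Spc25 at 11.42, 13.59 and 15.02 FPKM. The intervals of Spc25 for Ti over CTL (0.983 to 1.43) and for Ti+Se-Met over Ti (0.913 to 1.34) held equal levels.

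The genes of spindle fibres and cytokinesis were 6 of 6 higher in Ti+Se-Met than in Ti, with all 6 intervals above 1. Of these, Hmmr and Nusap1 changed direction between CTL and Ti with the scaling. Anln, which encodes the actin-binding protein anillin of the cleavage furrow, was at 16.74 (CTL), 20.12 (Ti) and 33.36 FPKM (Ti+Se-Met). Prc1, which bundles the fibres of the central spindle, was at 19.14, 25.60 and 38.03 FPKM. In both, the step between the Ti-treated libraries was the larger. Racgap1 and Ect2 act on RhoA at the furrow. Racgap1 was at 27.63, 45.97 and 55.19 FPKM, and Ect2 at 9.52, 12.58 and 15.92 FPKM. Hmmr, a spindle protein, was at 8.58, 8.65 and 12.86 FPKM, so that CTL and Ti were alike within counting error and Ti+Se-Met was higher. Nusap1, which binds spindle fibres, was at 7.06, 7.90 and 9.89 FPKM.

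Condensin folds the chromosomes for mitosis, and 4 of its genes were on the list. Smc4 was at 33.10 (CTL), 28.35 (Ti) and 42.51 FPKM (Ti+Se-Met), lowest in Ti. Its partner Smc2 was at 10.45, 12.49 and 15.37 FPKM, lowest in CTL. Of the other subunits, Ncapd2 was at 21.14, 30.77 and 40.15 FPKM and Ncapg at 6.41, 8.65 and 9.61 FPKM. Over the 4 genes, 0 were past 2-fold in either comparison with CTL. Of all genes, 3.63% (Ti) and 2.64% (Ti+Se-Met) were higher by that much, and 3.64% and 3.32% lower.

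The ratios moved with the length of the transcript. Over all genes tested, the median log2 ratio for Ti over CTL was 0.45 for the 664 genes of up to 1000 bases and was lower in each longer class, down to -0.29 for the 427 genes of more than 8000 bases. Ti+Se-Met over CTL went the same way, from 0.32 to -0.26, whereas between the Ti-treated libraries the classes lay between -0.12 and 0. The 5 members that were lower in Ti than in CTL have transcripts of 4316 bases (Smc4) to 11130 bases (Cenpf), and include the 3 longest. Across the 46 genes, which share libraries and are not replicates, the Spearman correlation of length with the log2 ratio was -0.62 for Ti over CTL, -0.55 for Ti+Se-Met over CTL and 0.15 for Ti+Se-Met over Ti. With the median of all genes in the same length class subtracted, the median log2 ratio of the mitosis genes was 0.33 for Ti over CTL, 0.89 for Ti+Se-Met over CTL and 0.45 for Ti+Se-Met over Ti. On that scale 41, 46 and 45 of the 46 lay above their class. Of the 10919 tested genes with a length, 5457 did so in each comparison, a number that the subtraction fixes. For Ti over CTL, Mki67 and Cenpf changed to above their class and Spc25 and Hmmr to below it, and only Plk1 remained past 2-fold for Ti over CTL. The part of length in these values beyond this subtraction was not tested.

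**Figure D2:**
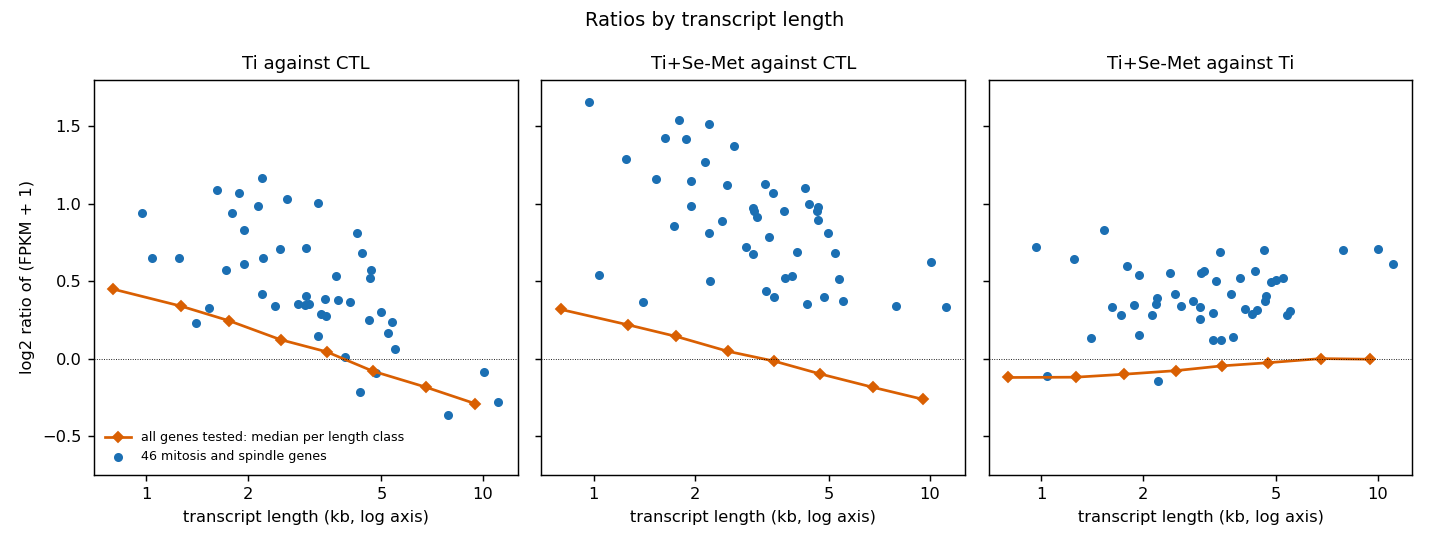
Log2 ratio of (FPKM + 1) against transcript length (kb, log axis) for the 46 mitosis and spindle genes (points) and the median of all genes tested in each of 8 length classes (diamonds and line), in the 3 comparisons. The line falls from 0.45 to -0.29 for Ti over CTL and is nearly flat for Ti+Se-Met over Ti, where 45 of the 46 points lie above the median of their class.

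Other genes of the cell cycle were set beside the 46. A list of 77 other mitotic genes had a median log2 ratio of 0.51 for Ti over CTL, 0.76 for Ti+Se-Met over CTL and 0.26 for Ti+Se-Met over Ti, with 64 of the 77 higher in the last comparison (83.1%), against 38.5% of all genes. Its numbers past 2-fold were 7, 16 and 0, against 3.63%, 2.64% and 0.162% of all genes. Kif18b and Kif22, 2 further kinesins, had the highest ratios in Ti among its genes of at least 5 FPKM on average. Kif18b was at 3.67 (CTL), 9.20 (Ti) and 10.97 FPKM (Ti+Se-Met), and Kif22 at 7.75, 17.39 and 18.76 FPKM. The lowest were the microtubule polymerase Ckap5, at 31.62, 23.78 and 31.14 FPKM, and Gas2l3, at 10.14, 6.28 and 9.52 FPKM, which were both lowest in Ti.

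Genes of the G1/S transition and of DNA replication, which come earlier in the cycle, were the next list. Their 42 genes past the filter had a median log2 ratio of 0.70 for Ti over CTL and 0.84 for Ti+Se-Met over CTL, with 11 and 16 past 2-fold, against 3.63% and 2.64% of all genes. For Ti+Se-Met over Ti the median was 0.01, beside -0.06 for all genes, with 22 genes higher (52.4%), against 38.5% of all genes, and 20 lower. Cdt1, a licensing factor of replication origins, was at 3.16 (CTL), 19.48 (Ti) and 19.09 FPKM (Ti+Se-Met). Mcm7, a subunit of the replicative helicase, was at 17.71, 51.05 and 49.02 FPKM. Between the Ti-treated libraries the intervals of their folds, 0.859 to 1.11 and 0.896 to 1.03, held equal levels. Ccnd3, at 72.35, 63.14 and 57.53 FPKM, and Cdk6, at 7.56, 6.84 and 6.06 FPKM, were highest in CTL.

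Core subunits of the anaphase-promoting complex and cohesin, which most cells carry throughout the cycle, were listed together with some regulators of both. The medians of this list were close to 0. Over 25 genes they were -0.04, -0.12 and -0.07 in the 3 comparisons, beside 0.08, 0.01 and -0.06 for all genes, and 0 were past 2-fold in any. Of all genes, 3.63%, 2.64% and 0.162% were higher by that much. Anapc7 was at 22.25, 39.12 and 33.50 FPKM and Anapc15 at 9.27, 16.13 and 15.90 FPKM, the highest ratios in Ti. Smc3 was at 38.91, 27.55 and 34.54 FPKM and Pds5b at 21.34, 14.93 and 15.79 FPKM, the lowest. In a wider set, the 306 tested genes that the deposited table annotates with cell division and that are not among the 46, the median for Ti+Se-Met over Ti was -0.03, beside -0.06 for all genes, with 140 genes higher (45.8%), against 38.5% of all genes. With the length class subtracted their median was 0.04, beside 0.45 for the mitosis genes. Of the 306, 174 lay above their class, against 5457 of the 10919 tested genes with a transcript length.

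Genes with a role in slowing the cycle were the last list, and this need not be their only role. Of 22 past the filter, 14 were higher in Ti than in CTL (63.6%), against 55.3% of all genes, with a median log2 ratio of 0.37 beside 0.08. In Ti+Se-Met 11 of the 22 were above Ti, against 38.5% of all genes, with a median of 0.06 beside -0.06. Lin37, a subunit of the complex that silences cell cycle genes in resting cells, was at 8.56, 17.34 and 15.05 FPKM, and Gadd45a, a stress gene, at 6.92, 13.70 and 16.18 FPKM. Cdkn1b, which encodes the Cdk inhibitor p27, was at 82.47, 50.83 and 56.48 FPKM, and the retinoblastoma gene Rb1 at 11.21, 7.35 and 8.16 FPKM. The last pair were highest in CTL.

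**Figure D3:**
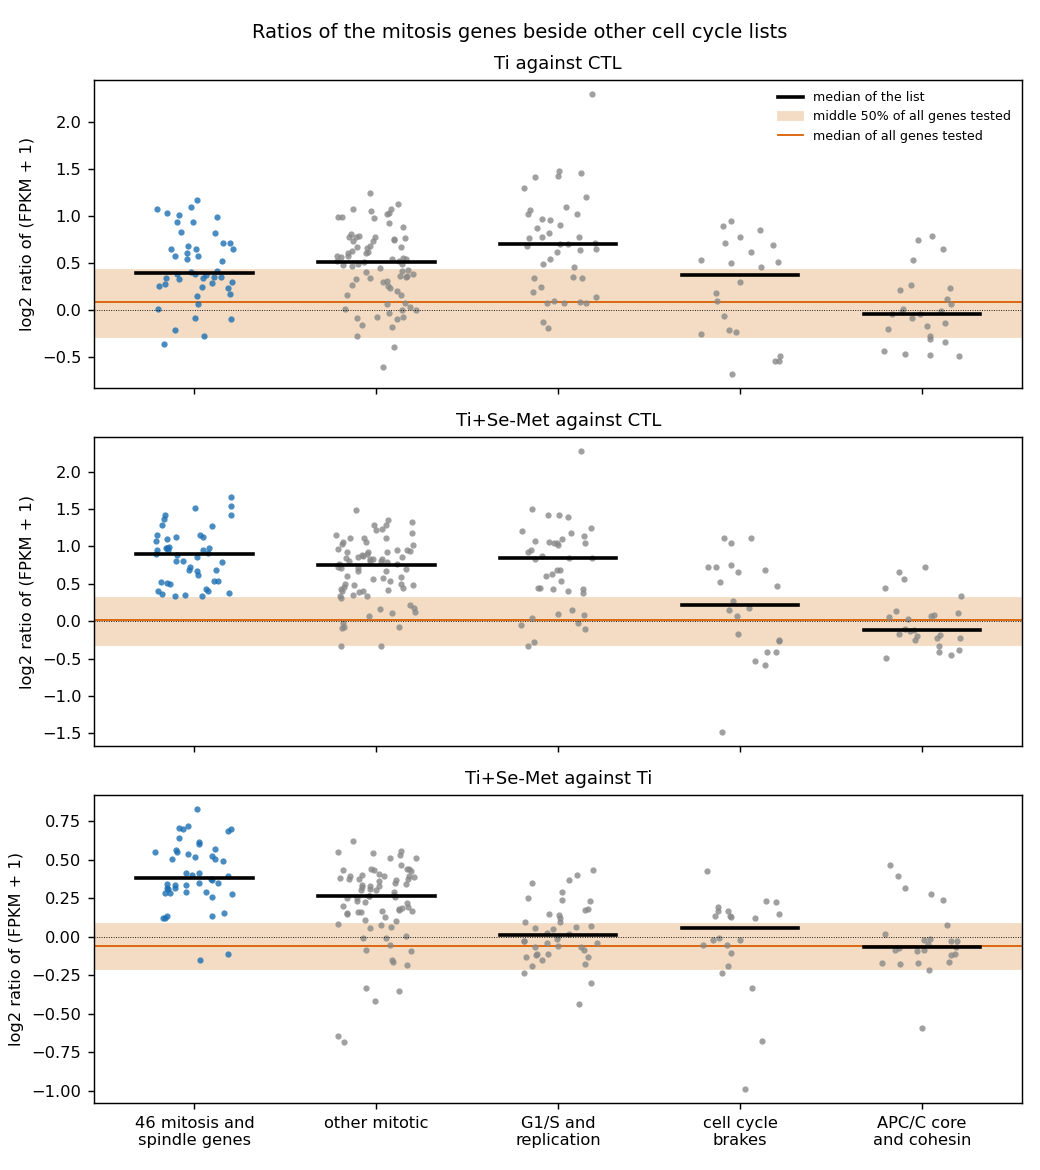
Log2 ratio of (FPKM + 1) of each gene (points) in 5 lists, with the list's median (black bar) and the median and middle 50% of all 11137 genes tested (orange line and band), in the 3 comparisons with 1 library per condition. The mitosis genes have a median of 0.38 for Ti+Se-Met over Ti, the G1/S genes 0.01 and the list of the anaphase-promoting complex and cohesin -0.07.

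The promoters of the mitosis genes were searched because genes of this phase are known to share the cell cycle homology region (CHR), through which the DREAM and MuvB complexes bind, and CCAAT boxes, which bind NF-Y. RefSeq promoters on GRCm38.p6, from 250 bases before the start to 50 after, were matched by symbol for 38 of the 46 genes, the others being Foxm1, Tpx2, Incenp, Ccna2, Kif20a, Cdc25c, Smc4 and Aurkb. The CHR-type words were TTTGAA or TTTAAA or TTCGAA, counted on both strands, and a word may overlap another. At least 1 was found in 34 of the 38 genes (89.5%), against 31.9% of all 27025 genes with a promoter and 24.4% of the 8976 genes tested that have a promoter. Other mitotic genes held such a word in 43 of 65 (66.2%) and genes that slow the cycle in 5 of 18 (27.8%). In the list of the anaphase-promoting complex and cohesin, 4 of 21 did (19.0%). CCAAT was found on either strand in 29 of the 38 (76.3%), against 41.1% of all genes and 43.9% of the tested ones. Like the CHR-type words, CCAAT was not particular to the mitosis genes. It was in 41 of 65 other mitotic genes (63.1%), 23 of 34 G1/S genes (67.6%) and 13 of 18 genes that slow the cycle (72.2%). In the list of the anaphase-promoting complex and cohesin it was in 9 of 21 (42.9%). In windows set after the matches were seen, the CHR-type words of the members lay near the start, with 30 of the 38 genes holding 1 within 50 bases on either side of it (78.9%), against 9.91% of all genes. The other lists were not counted in these windows. A match is a run of letters and not a measured site, and no binding was measured in these cells.

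**Figure D4:**
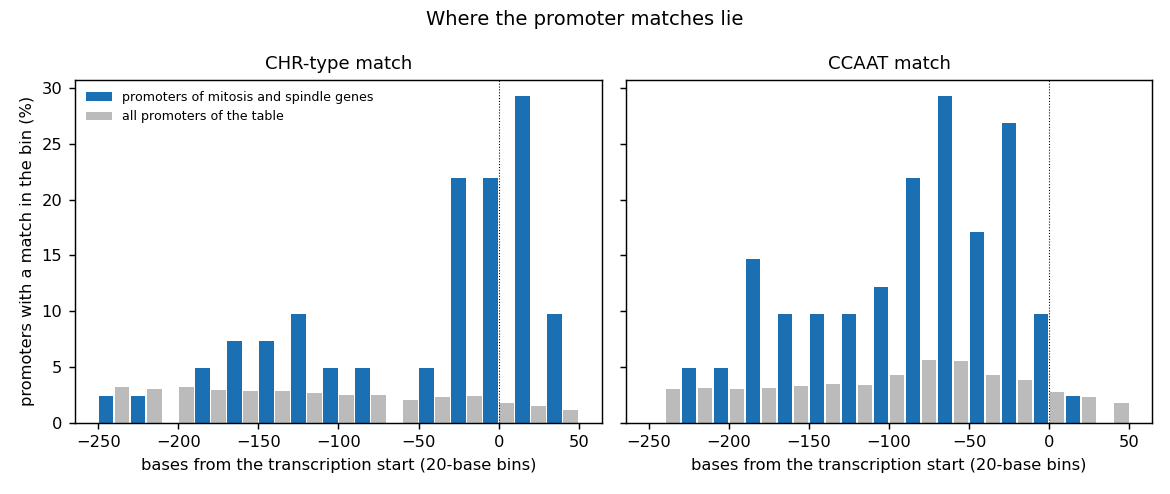
Share of promoters (%) with a CHR-type or CCAAT match beginning in each 20-base bin, by distance from the transcription start, for 41 promoters of 38 mitosis and spindle genes (blue) and all promoters of the table (grey). Of the 38 genes, 30 have a CHR-type match within 50 bases of the start (78.9%, against 9.91% of all genes). A CCAAT match lies in the 100 bases before it in 25 (65.8%, against 22.0%). Both windows were set after the matches were seen.

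Promoters are shown, as chosen after the values were seen, for Plk1, Ccnb2, Cdc20 and Ube2c, which had the largest log2 ratio of a comparison or came close to it, for Ccnb1 as the partner of Ccnb2, and for Pttg1, which had neither word and was not higher in Ti+Se-Met than in Ti. Each runs 5′ to 3′ on the strand of the gene from 110 bases before the start to 30 after, with CHR-type and CCAAT words of either strand in capitals. They lie on GRCm38.p6 at chr7:122159325-122159464 (plus strand) for Plk1, chr9:70421525-70421664 (minus) for Ccnb2, chr4:118437314-118437453 (minus) for Cdc20, chr2:164769819-164769958 (plus) for Ube2c, chr13:100786457-100786596 (minus) for Ccnb1 and chr11:43425952-43426091 (minus) for Pttg1.
Plk1: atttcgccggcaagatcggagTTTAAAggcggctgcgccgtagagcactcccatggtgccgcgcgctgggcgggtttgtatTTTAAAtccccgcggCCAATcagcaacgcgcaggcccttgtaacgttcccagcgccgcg
Ccnb2: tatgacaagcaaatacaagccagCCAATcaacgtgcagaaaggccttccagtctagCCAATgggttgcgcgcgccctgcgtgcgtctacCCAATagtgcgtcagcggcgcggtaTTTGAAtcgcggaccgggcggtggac
Cdc20: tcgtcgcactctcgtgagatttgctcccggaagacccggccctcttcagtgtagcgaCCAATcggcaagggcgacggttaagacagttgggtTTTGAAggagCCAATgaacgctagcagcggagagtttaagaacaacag
Ube2c: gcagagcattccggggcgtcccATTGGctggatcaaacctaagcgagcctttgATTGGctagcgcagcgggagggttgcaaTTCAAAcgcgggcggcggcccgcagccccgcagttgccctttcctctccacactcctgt
Ccnb1: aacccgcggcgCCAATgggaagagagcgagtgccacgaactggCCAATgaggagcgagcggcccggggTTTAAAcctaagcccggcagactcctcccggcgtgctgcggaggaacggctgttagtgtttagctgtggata
Pttg1: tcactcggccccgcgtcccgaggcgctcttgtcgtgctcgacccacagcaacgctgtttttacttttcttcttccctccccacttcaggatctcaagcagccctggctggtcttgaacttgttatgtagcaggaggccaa

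In Ccnb2, 3 CCAAT words beginning 87, 54 and 21 bases before the start precede a TTTGAA that begins 4 bases after it, and in Ube2c the words stand on the other strand. In Cdc20 a CCAAT lies on each side of the TTTGAA, and in the printed windows of Plk1 and Ccnb1 the CHR-type word is TTTAAA. Neither word was found in Nuf2, Nusap1 and Mad2l1 either, which were higher in Ti+Se-Met than in Ti, and Bub3, which was lower, had both. Words of the kind bound by E2F factors were in 4 of the 38 mitosis genes (10.5%), against 5.11% of all genes with a promoter and 9.49% of the tested ones, and in 19 of 34 G1/S genes (55.9%), while CHR-type words were in 13 of those 34 (38.2%). The 8-letter E2F-type words searched were TTTCCCGC and TTTGGCGC and TTTGCCGC and TTTCGCGC and TTCCCGCC and TTGGCGCC, which overlap each other in part.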

How the data were processed

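RNA-seq values of 3 libraries were used, with 1 library per condition. Per the paper's methods and the labels, the authors removed adapter and low-quality reads, used HISAT2 for alignment and HTSeq for gene counts, and deposited FPKM with 2 decimals. The submitters' processing notes also list StringTie, SAMtools and mm9. How FPKM was made is not given in the sources used here. No scaling between libraries is stated. All 3 value columns matched a library by name (0 unmatched).

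Ratios are differences in log2(FPKM + 1), computed in scipy 1.17.1, pandas 2.3.3 and numpy 2.4.6 under Python 3.11.15. With 1 library per condition no test was run. Depth was estimated from the steps of single fragments in 453 genes with 1 transcript of 350 to 1000 bases, less 150 bases, with GENCODE M21 lengths. Of the low values used, 48.9% to 58.3% lay on a step. Chance gives 18% for a fixed depth and more for the best of many depths, which was taken here. Depths that fitted nearly as well ran from 13800000 to 14500000, 14550000 to 14950000 and 9950000 to 10750000 fragments for CTL, Ti and Ti+Se-Met. About double the depth fitted nearly as well for CTL and Ti+Se-Met. Lengths are means over transcripts matched by RefSeq accession and were found for 98.0% of tested genes and all 46 members. The steps were checked on simulated data. The simulation used the same lengths and the same 150 bases subtracted, so it cannot show whether the deposited values follow them.

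The 46 members and the lists were chosen with earlier results of these data known. All members are named. Of each other list, the 2 highest and 2 lowest log2 ratios in Ti against CTL at a mean FPKM of at least 5 are named. Col1a1, Runx2, Spp1, Alpl, Sp7, Bglap, Ibsp and Lyz2 are named as markers, and Cenpk, Cenpw, Zwint and Mybl2 were chosen after their values were seen. The length classes and the annotation terms were added after the data were seen. The alternatives were pseudocounts, filters, thresholds and scalings between libraries.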

Additional observations from a re-analysis of the deposited data

How the results depend on the processing

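No paired analysis was possible because the conditions have 1 library apiece, which also means that none could be left out. Depth limits the low values, such as those of Cdc25c and Ttk, and its estimate is itself uncertain. The number of mitosis genes past 2-fold for Ti over CTL, 5, was 0 as TPM, at 4-fold and with a pseudocount of 5. It was 1 with upper-quartile scaling and with the length class subtracted (chosen after seeing the data). With median-of-ratios scaling it was 3, with a pseudocount of 0.1 it was 6, and at 1.5-fold 17. For Ti+Se-Met over CTL, 14 became 33 at 1.5-fold, 0 at 4-fold, 7 with a pseudocount of 5 and 10 as TPM. It became 18 with a pseudocount of 0.1, 17 with the length class subtracted and 16 with median-of-ratios scaling. For Ti+Se-Met over Ti, 0 became 9 at 1.5-fold. The median log2 ratio for Ti over CTL, 0.39, was 0.21 as TPM. These changes follow from the scaling factors, pseudocounts and thresholds by construction. The median stayed above that of all genes in the 3 comparisons under each setting run. For Ti+Se-Met over Ti, 44 of 46 genes were higher with each pseudocount and scaling run, and 45 with the length class subtracted. As TPM, 37 of 46 were higher in Ti than in CTL, so the direction of the members with small ratios there depended on the scaling. With no filter, the values of the members were the same by construction.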

Other observations

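Within the list of other mitotic genes, some went against the majority between the Ti-treated libraries. Cenpk was at 3.72 (CTL), 5.04 (Ti) and 2.76 FPKM (Ti+Se-Met), and Cenpw, a histone-fold protein of the inner kinetochore, at 2.89, 6.64 and 3.90 FPKM. Zwint, a kinetochore gene of much higher level, was at 81.07, 136.09 and 106.22 FPKM. Mybl2, which encodes B-Myb, was at 1.17, 4.15 and 2.85 FPKM. In the 4 genes, picked after their values were seen, Ti was the highest library, as it was for Bub3 and Pttg1.

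An ordered pair of words in the promoters of the mitosis genes was also looked for elsewhere, after the matches had been seen. A CCAAT beginning 15 to 60 bases before a CHR-type word stood in 23 of 38 mitosis genes (60.5%), 21 of 65 other mitotic genes (32.3%), 5 of 34 G1/S genes (14.7%) and 3.14% of all 27025 genes. Of the tested genes, 217 outside the 46 and outside the other mitotic and G1/S lists had it. Between the Ti-treated libraries their median log2 ratio was -0.05, beside -0.07 for the 8623 genes without it, with 43.3% and 37.1% of genes higher, and for Ti+Se-Met over CTL it was -0.01, beside 0.01. Higher by 2-fold or more were 11 of the 217 (5.07%), beside 2.15% of those without it, for Ti+Se-Met over CTL. For Ti over CTL the median of the 217 was 0.03, beside 0.08 for those without the pair, with 50.7% and 55.7% of genes higher. By 2-fold or more, 11 of the 217 were higher there too (5.07%), beside 3.35%. Genes lower by as much were not counted here.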
